A study of Mus musculus with 8 samples.

Results

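Imprinted genes of the mouse were examined locus by locus in epidermal keratinocytes of Hmgb1 knockout and control mice. The set held 47 genes at 19 imprinted loci, out of 24421 gene symbols in the count tables. It was chosen by gene symbol from a list of imprinted genes that had been selected with earlier results of these same data in view, so its differences are given as a description and the counts are read against the background over all genes. Of 31 tested imprinted genes, 8 at 7 loci were lower in knockout libraries, 2 at 2 loci were higher and 21 did not pass the test. Over all 13016 tested genes, 4.54% were lower and 4.33% were higher. The other 16 imprinted genes had too few counts to be tested.

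The knockout group was 4 libraries of skin keratinocytes from InvEE mice that were homozygous for floxed Hmgb1 and carried K5-Cre (InvEE K5 Cre+ HMGB1 fl/fl), and the control group was 4 libraries from InvEE mice with the same floxed alleles and no K5-Cre (InvEE K5 Cre- HMGB1 fl/fl). Both groups carried the InvEE transgene, an activated form of the kinase MEK1 driven by the involucrin promoter of differentiating keratinocytes, and both were of CBA x C57Bl/6J strain; the labels used here give no age and no sex. K5-Cre is Cre recombinase under the keratin 5 promoter, active in the basal layer and so in the cells that arise from it; it was present in the knockouts alone, so Cre and the loss of Hmgb1 cannot be told apart. The replicate numbers are not said to mark separate animals, so p-values measure the spread between libraries, part of which may be technical.

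Each library held 30506676 to 34229030 counts on genes. Levels are given as CPM, a gene's counts scaled to the size of its library. Hmgb1, the targeted gene, had 113.4, 118.7, 126.2 and 114.1 CPM in knockout libraries, against 565.5, 599.3, 585.5 and 615.0 CPM in control libraries. Hmgb1 reads thus remained in every knockout library, and their source was not tested. Keratins 5 and 14 averaged 24214 and 17438 CPM in knockout and 23793 and 17727 CPM in control libraries. Of the 8 keratinocyte markers listed, 2, Krt10 and Cdh1, were higher in knockout. Y-linked transcripts were present in knockout replicate 1 and control replicates 2 and 3 (6110 to 6743 counts). They were nearly missing from the other 5 libraries (0 to 51 counts), so the groups also differ in that respect. Xist had 4.90 CPM in knockout replicate 1, 0.22 and 0.37 CPM in control replicates 2 and 3, and 1282.5 to 2322.7 CPM in the other 5. Both kinds of library occurred in each group, so neither group came from a single animal.

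Genomic imprinting is the expression of a gene from the copy inherited from one parent only. It is set by DNA methylation laid down in the egg or sperm at imprinting control regions, kept through cell division by DNMT1 and by zinc finger proteins such as ZFP57, and read out over whole clusters, often through a long noncoding RNA that silences its neighbours. Many paternally expressed genes promote growth and many maternally expressed genes restrain it, and a network that includes Plagl1, H19, Igf2, Cdkn1c, Dlk1, Peg3, Mest and Grb10 is known to be switched down as tissues mature. Several of these genes are also expressed in tissue stem cells, and H19, Peg3 and Dlk1 have been studied in that setting. Imprinting is often restricted to a tissue, as for Ube3a in neurons and Osbpl5, Cd81, Ascl2 and Dcn in placenta. The counts do not separate parental copies, so the parental assignments used below are background knowledge of each gene and not measurements in these cells.

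The start-site regions of the lower genes are printed because imprinting control regions often lie over or near CpG-rich starts. Whether the windows printed here overlap a control region was not examined. Each runs from 250 bases before to 50 bases after a transcript start in RefSeq GRCm38.p6, the assembly of mm10, and is written 5′ to 3′ along the gene's own strand, with every CpG in capitals. The start farthest upstream was taken for Casd1 and Slc38a4, and the other lower genes, H19, Peg13 and Sgce, are named only.
Peg3, chr7:6730370-6730669, minus strand: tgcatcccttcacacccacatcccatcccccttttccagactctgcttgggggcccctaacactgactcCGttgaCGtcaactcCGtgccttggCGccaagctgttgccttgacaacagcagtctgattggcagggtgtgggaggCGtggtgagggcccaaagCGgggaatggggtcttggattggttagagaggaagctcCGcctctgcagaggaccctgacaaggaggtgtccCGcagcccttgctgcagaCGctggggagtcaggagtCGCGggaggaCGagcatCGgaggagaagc
Plagl1, chr10:13090582-13090881, plus strand: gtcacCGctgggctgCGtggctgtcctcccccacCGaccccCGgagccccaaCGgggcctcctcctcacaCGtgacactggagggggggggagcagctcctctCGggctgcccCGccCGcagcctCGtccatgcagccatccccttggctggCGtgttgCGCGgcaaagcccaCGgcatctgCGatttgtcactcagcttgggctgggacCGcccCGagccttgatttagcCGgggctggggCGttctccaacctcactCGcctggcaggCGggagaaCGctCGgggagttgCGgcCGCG
Casd1, chr6:4600661-4600960, plus strand: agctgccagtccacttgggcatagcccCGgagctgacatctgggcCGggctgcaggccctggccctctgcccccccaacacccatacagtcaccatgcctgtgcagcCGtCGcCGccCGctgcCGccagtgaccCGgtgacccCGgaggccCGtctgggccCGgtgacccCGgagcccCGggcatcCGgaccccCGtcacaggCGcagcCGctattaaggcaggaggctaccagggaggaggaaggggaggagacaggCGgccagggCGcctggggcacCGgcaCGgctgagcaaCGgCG
Slc38a4, chr15:97055907-97056206, minus strand: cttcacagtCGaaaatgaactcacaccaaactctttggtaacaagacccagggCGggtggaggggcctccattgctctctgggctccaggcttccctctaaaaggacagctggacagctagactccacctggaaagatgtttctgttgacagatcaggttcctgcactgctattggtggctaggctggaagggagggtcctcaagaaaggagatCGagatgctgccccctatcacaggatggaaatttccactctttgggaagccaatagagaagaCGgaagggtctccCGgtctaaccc
Rasgrf1, chr9:89909525-89909824, plus strand: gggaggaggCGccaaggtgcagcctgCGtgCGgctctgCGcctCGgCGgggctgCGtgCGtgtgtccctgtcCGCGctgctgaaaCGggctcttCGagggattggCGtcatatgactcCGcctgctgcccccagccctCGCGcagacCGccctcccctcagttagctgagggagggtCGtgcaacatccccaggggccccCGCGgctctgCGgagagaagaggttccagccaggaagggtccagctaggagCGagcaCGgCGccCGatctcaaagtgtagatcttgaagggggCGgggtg
The windows of Plagl1 and Rasgrf1 held 26 CpG each, that of Casd1 held 23 and that of Peg3 13, while that of Slc38a4 held 5. The median was 14 over the 59 windows of 38 imprinted genes with an entry, against 7 over all 32851 promoter windows. The hexamer TGCCGC, the core bound by ZFP57 when methylated, was searched on both strands. It was found in 14 windows of 13 imprinted genes, Plagl1 and the printed Casd1 window among them, and in 11.6% of all promoter windows. The YY1 motif GCCATNTT, also searched on both strands, was found in 2 imprinted windows, one of the other Slc38a4 starts and Ube3a, against 6.05% of all windows. The Peg3 window held neither motif. It shared 263 bases with the window of Usp29, which starts on the opposite strand 96 bases away.

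Across all 13016 tested genes, 8.87% passed the edgeR quasi-likelihood test at an adjusted p of 0.05 (Benjamini-Hochberg), with 4.33% higher and 4.54% lower in knockout. Among the imprinted genes 31 were tested, 2 were higher and 8 lower. The knockout libraries lay wholly below the control libraries for 8 imprinted genes and wholly above for 4, against a background of 9.00% below and 7.95% above over all tested genes. The median log2 fold change was 0.09 for the imprinted genes and -0.02 for all tested genes. By the allele each gene is known to be expressed from, 6 of 14 tested paternal genes were lower and 0 higher, 1 of 15 tested maternal genes was lower and 2 were higher, and 1 of the 2 genes with an unclear or mixed allele was lower. Of the 6 lower paternal genes, Sgce and Rasgrf1 passed the filter on low counts only through their control libraries, so these counts are not support for a difference between alleles. A test of that difference was not made. Several of the assignments are known from certain tissues only. Among the tested maternal genes these were Osbpl5, Cd81, Ascl2 and Dcn (placenta), Trappc9, Blcap and Commd1 (brain) and Ube3a (neurons). Copg2 and H13 are maternal in some tissues or transcripts only. Among the paternal genes they were Peg13, Rasgrf1 and an isoform of Inpp5f (brain). Whether these genes are imprinted in keratinocytes was not measured. In the 5 libraries without Y-linked transcripts (3 knockout and 2 control), 5 of the 10 calls remained, those of Peg3, Slc38a4, Peg13, H19 and Rasgrf1, and the other 5 had edgeR adjusted p of 0.0507 (Plagl1), 0.0763 (Casd1), 0.0895 (Dcn), 0.172 (Osbpl5) and 0.185 (Sgce). With all libraries and a term for Y-linked transcripts, 8 remained; H19 (adjusted p = 0.051) and Sgce (adjusted p = 0.0555) did not.

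**Figure D1:**
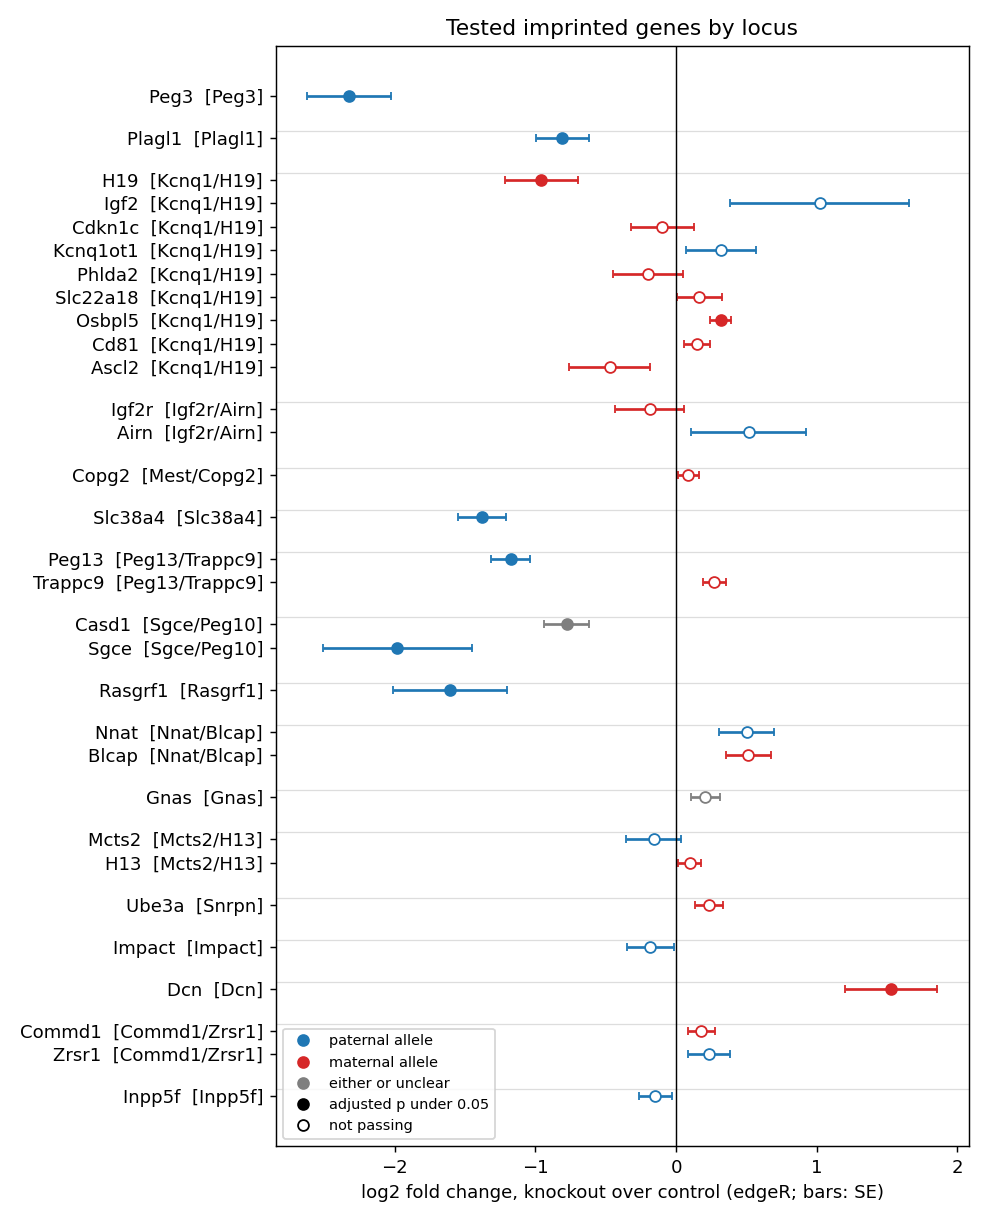
The log2 fold change of knockout over control is plotted for the 31 tested imprinted genes, ordered by locus and coloured by the parental allele known as background, with bars for the SE and filled points for genes past the adjusted p of 0.05. The 8 filled points left of 0 run from Peg3 at -2.33 to Casd1 at -0.78, the 2 right of 0 are Osbpl5 at 0.32 and Dcn at 1.53, and most open points lie close to 0.

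At the Peg3 locus (chr7:6703892-6730462, minus strand), Peg3 was about 5-fold lower. Peg3 is a paternally expressed gene for a large zinc finger DNA-binding protein. It had 0.79, 0.92, 0.52 and 0.57 CPM in knockout libraries, against 3.71, 3.80, 4.44 and 2.07 CPM in control libraries. Every knockout library lay well below the lowest control library, control replicate 4. The log2 fold change was -2.33 (SE 0.30, edgeR adjusted p = 0.0029), and Peg3 passed the threshold under all 18 alternatives tried. Its neighbours in the same cluster were hardly detected, with 1 count of Usp29 in knockout and 0 in control libraries, and 0 counts of Zim1 in knockout and 4 in control libraries.

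Slc38a4 (chr15:96994816-97055956, minus strand) encodes an amino acid transporter of system A and is paternally expressed. It had 8.91, 8.05, 10.2 and 6.19 CPM in knockout libraries, against 16.9, 24.6, 22.3 and 23.0 CPM in control libraries. The groups were well separated, with control replicate 1 the lowest of its group. Slc38a4 fell by 1.38 on the log2 scale (SE 0.17, edgeR adjusted p = 0.0027) and passed under all 18 alternatives.

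At the Peg13/Trappc9 locus, the noncoding RNA fell while its host gene did not. Peg13 (chr15:72805602-72810324) is a paternally expressed long noncoding RNA that lies in an intron of Trappc9, on the same strand and with no shared exon base. It had 4.08, 4.03, 4.66 and 4.74 CPM in knockout libraries, against 8.66, 10.4, 10.6 and 9.84 CPM in control libraries. The 4 knockout values differed little from each other and were all below 5 CPM. The log2 fold change of Peg13 was -1.18 (SE 0.14, edgeR adjusted p = 0.0019), and it passed under all 18 alternatives.

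Trappc9, a subunit of a complex that tethers transport vesicles, is expressed mainly from the maternal copy in brain. It had 69.8, 68.0, 60.5 and 68.8 CPM in knockout libraries, against 55.6, 56.5, 50.1 and 58.9 CPM in control libraries. Its groups did not overlap, with knockout above, yet its log2 fold change of 0.27 (SE 0.08) missed the threshold (edgeR adjusted p = 0.069). It passed with DESeq2 (adjusted p = 0.0307) and without knockout replicate 3 (edgeR adjusted p = 0.0462). Within a library, and so free of scaling between libraries, there were 5.85, 5.93, 7.70 and 6.88 Peg13 counts per 100 Trappc9 counts in knockout libraries and 15.6, 18.5, 21.2 and 16.7 in control libraries. The highest knockout value was under 8 and the lowest control value over 15. Kcnk9, a potassium channel gene of the same locus, had 0 counts in every library.

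At the Sgce/Peg10 locus on chromosome 6, Casd1 and Sgce were lower, and Peg10 had nearly no reads in knockout. Casd1 (chr6:4600911-4643355), which encodes an enzyme that acetylates sialic acids, is the most abundant of them. It had 6.84, 5.86, 8.76 and 8.97 CPM in knockout libraries, against 14.9, 12.8, 11.9 and 12.6 CPM in control libraries. No knockout library reached 9 CPM. Casd1 fell by 0.78 on the log2 scale (SE 0.16, edgeR adjusted p = 0.016), and it passed under all alternatives but one: in the 5 libraries without Y-linked transcripts its log2 fold change was -0.81 with an adjusted p of 0.0763.

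Sgce (chr6:4674350-4747204, minus strand) encodes epsilon-sarcoglycan, a membrane protein of the dystrophin-associated complex, and is paternally expressed. It had 0.11, 0.26, 0.03 and 0.06 CPM in knockout libraries, against 0.67, 0.51, 0.37 and 0.32 CPM in control libraries. The groups did not overlap, but all values were under 1 CPM, and the gene entered the test through its control libraries alone. Its log2 fold change was -1.98 (SE 0.53, edgeR adjusted p = 0.043), and the call was lost when any library except knockout replicate 2 was left out, with adjusted p up to 0.0994. The log2 fold change was -2.75 without knockout replicate 2, its highest knockout library, and -1.67 to -2.13 without any other single library. The Sgce call was also lost in 4 of the 9 other alternatives in which the gene was tested.

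Peg10, a paternally expressed gene derived from a retrotransposon, starts 101 bases from Sgce and runs the other way. It was below the filter and had 1, 0, 0 and 1 counts in knockout libraries, against 13, 17, 15 and 10 counts in control libraries. The summed counts were 2 in knockout and 55 in control libraries, a depth-adjusted ratio of 0.0402 (95% interval 0.00475 to 0.152, exact, counting error only). With no filter on low counts edgeR gave an adjusted p of 0.0035. The 2 genes farther out are known for maternal expression and were barely detected. Ppp1r9a, a neurabin that binds actin and protein phosphatase, had 9 counts in knockout and 7 in control libraries, and Asb4, a ubiquitin ligase adaptor, had 1 in knockout and 4 in control libraries.

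**Figure D2:**
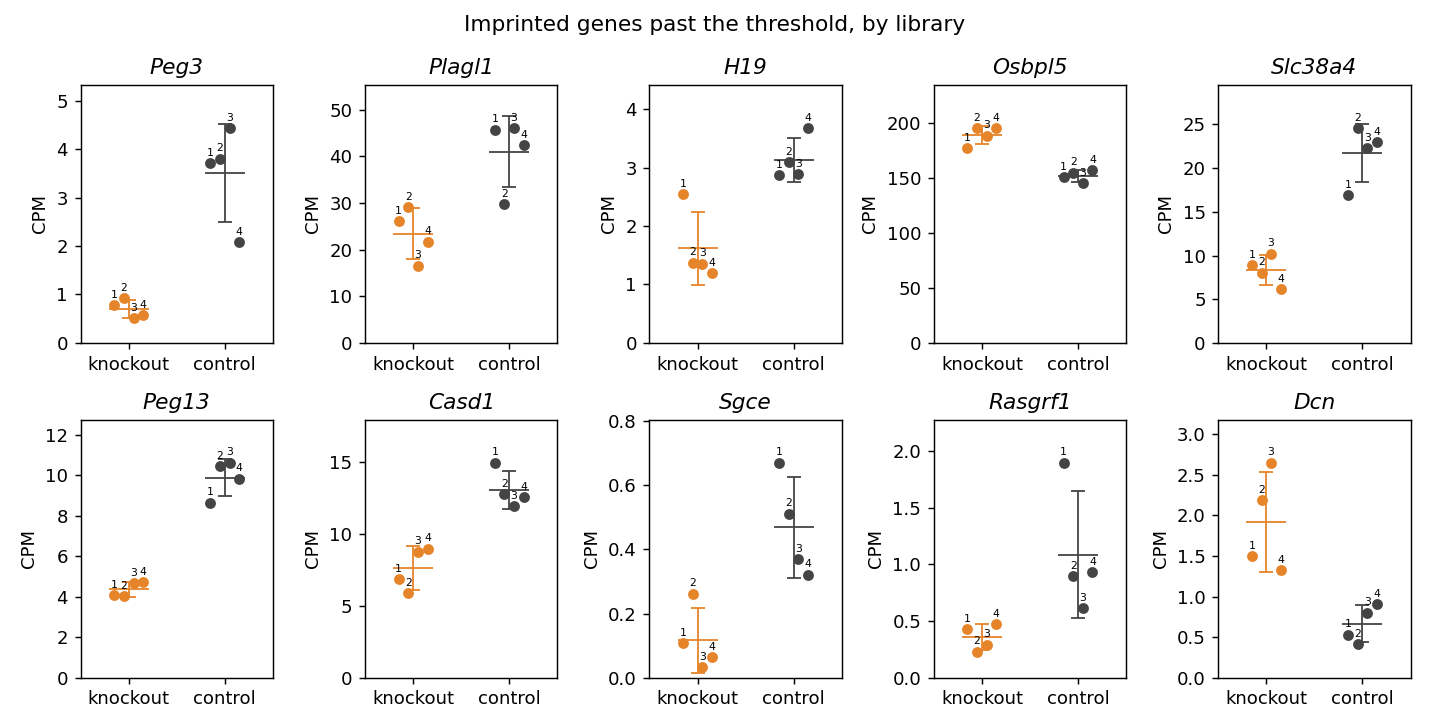
CPM in each library are plotted for the 10 imprinted genes past the threshold, with knockout left of control, a horizontal mark for the mean, bars for the SD (n = 4 each) and replicate numbers beside the points. The 2 groups separate in every panel, closely so for H19 and Plagl1, where knockout replicate 1 of H19 (2.54 CPM) and control replicate 2 of Plagl1 (29.8 CPM) come near the other group.

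Plagl1 (chr10:13090832-13131694, plus strand) encodes a zinc finger transcription factor that regulates other imprinted genes, and only its paternal copy is expressed in most tissues. It had 26.1, 29.1, 16.6 and 21.7 CPM in knockout libraries, against 45.7, 29.8, 46.1 and 42.4 CPM in control libraries. Control replicate 2 almost met the highest knockout library. Plagl1 was 1.75-fold higher in control by group means; its log2 fold change was -0.81 (SE 0.19, edgeR adjusted p = 0.028). The call was lost on leaving out any of 5 single libraries, knockout replicates 1 and 4 and control replicates 1, 3 and 4, with adjusted p of 0.0564 to 0.071. The Plagl1 call was also lost in 2 of the 10 other alternatives, with adjusted p up to 0.0797.

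Rasgrf1 (chr9:89909508-90026979, plus strand), an exchange factor that activates Ras, is paternally expressed in brain. It had 0.43, 0.23, 0.29 and 0.47 CPM in knockout libraries, against 1.90, 0.89, 0.62 and 0.93 CPM in control libraries. Control replicate 1 was highest, at about double the next one, and the gene was kept by the filter through its control libraries. The log2 fold change was -1.61 (SE 0.41, edgeR adjusted p = 0.036). It was -1.19 without control replicate 1 (adjusted p = 0.0676), and only the omission of control replicate 3 left the call in place.

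The Kcnq1/H19 region of distal chromosome 7 holds 2 neighbouring domains, one governed by the H19 control region and the other by the noncoding RNA Kcnq1ot1. All 9 listed genes were tested: H19 was lower, Osbpl5 was higher and 7 did not pass. H19 (chr7:142575530-142578146, minus strand) is a maternally expressed noncoding RNA known to restrain growth, and it is the precursor of miR-675. It had 2.54, 1.38, 1.36 and 1.20 CPM in knockout libraries, against 2.88, 3.10, 2.90 and 3.68 CPM in control libraries. Knockout replicate 1 stood apart from the other knockouts, just under the lowest control. The log2 fold change was -0.96 (SE 0.26, edgeR adjusted p = 0.045). Leaving out any single library other than knockout replicate 1 lost the call, with edgeR adjusted p of 0.063 to 0.128. The H19 call was also lost in 3 of the 10 other alternatives.

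The miRNA that H19 carries in an exon is shown because it is the small RNA product of that transcript; small RNAs were not measured here. The seed, bases 2 to 8, is in capitals (RefSeq, GRCm38.p6, chr7:142577112-142577133 for the 5p arm and chr7:142577078-142577099 for the 3p arm, minus strand).
miR-675-5p: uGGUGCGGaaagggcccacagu
miR-675-3p: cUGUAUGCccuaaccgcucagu
The 2 arms have different seeds.

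Igf2, the paternally expressed growth factor that shares enhancers with H19, was scarce. It had 1.00, 0.46, 0.32 and 0.19 CPM in knockout libraries, against 0.17, 0.03, 0.34 and 0.41 CPM in control libraries. The groups overlapped, and the log2 fold change of 1.02 had an SE of 0.64 (edgeR adjusted p = 0.34). A difference in Igf2 was not detectable at this depth.

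Osbpl5 (chr7:143688762-143757008, minus strand), an oxysterol-binding protein family member that moves lipids between membranes, lies at the other end of the region. It had 177.5, 195.7, 188.6 and 195.5 CPM in knockout libraries, against 150.6, 155.1, 145.4 and 156.9 CPM in control libraries. The difference was small and even, with both groups tightly spread. Its log2 fold change was 0.32 (SE 0.08, edgeR adjusted p = 0.031). The call was lost without any 1 of knockout replicates 2 and 4 or of the 4 controls (edgeR adjusted p of 0.0548 to 0.0994). It was also lost in 4 of the 10 other alternatives. Library totals as the only scaling gave a log2 fold change of 0.21 (edgeR adjusted p = 0.117) and moved the median of all genes to -0.13. The others were upper quartile scaling, the replicate block and the libraries without Y-linked transcripts.

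The other maternally expressed genes of the Kcnq1 domain did not pass. Cdkn1c, the cell cycle inhibitor p57, averaged 1.21 ± 0.22 CPM in knockout and 1.29 ± 0.07 CPM in control libraries (SD, n = 4 each; log2 fold change -0.10, SE 0.22). Phlda2, a restrainer of placental growth, had a log2 fold change of -0.20 (SE 0.25), Slc22a18, an organic cation transporter-like gene, 0.17 (SE 0.16), and the tetraspanin gene Cd81 0.15 (SE 0.09). Ascl2, a basic helix-loop-helix transcription factor, had -0.47 (SE 0.29).

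Kcnq1ot1, the paternally expressed noncoding RNA that silences this domain, varied among libraries, with overlapping groups. It had 23.7, 32.7, 17.5 and 39.1 CPM in knockout libraries, against 30.7, 20.2, 21.5 and 18.2 CPM in control libraries (log2 fold change 0.32, SE 0.25, edgeR adjusted p = 0.46). The 3 libraries above 30 CPM were knockout replicates 2 and 4 and control replicate 1. The same 3 had the largest shares of reads outside annotated genes, 19.4%, 20.4% and 21.7%, against 15.7 to 17.3% in the other 5. Whether that share plays a part in the Kcnq1ot1 values was not tested.

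**Figure D3:**
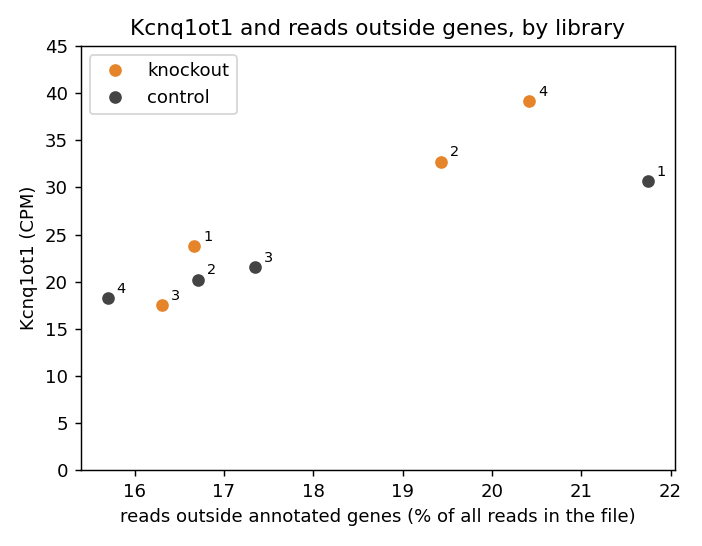
Each point is a library, with the share of reads outside annotated genes across and Kcnq1ot1 in CPM up; knockout and control are coloured and numbered by replicate. Knockout replicates 2 and 4 and control replicate 1 sit at upper right, and the other 5 libraries lie between 17.5 and 23.7 CPM.

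Dcn (chr10:97479500-97518163, plus strand), which encodes the collagen-binding proteoglycan decorin and is maternally expressed in placenta, was the imprinted gene with the largest increase that passed the test. It had 1.50, 2.19, 2.65 and 1.33 CPM in knockout libraries, against 0.53, 0.42, 0.80 and 0.91 CPM in control libraries. The groups did not overlap, and the log2 fold change was 1.53 (SE 0.33, edgeR adjusted p = 0.020). The call was lost without knockout replicate 2 (adjusted p = 0.0604) or control replicate 2 (adjusted p = 0.0563).

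Decorin is a product of fibroblasts, so fibroblast markers are set beside it. Of 9 listed, 4 were tested and 0 passed (1 at an unadjusted p under 0.05), and their summed level was 248 to 359 CPM in knockout and 178 to 255 CPM in control libraries, most of it Thy1. Thy1 averaged 279.9 CPM in knockout and 208.8 CPM in control libraries (log2 fold change 0.42, edgeR adjusted p = 0.0808). Lum and Dpt averaged 0.16 and 0.11 CPM in knockout and 0.08 and 0.05 CPM in control libraries, while Pdgfra, Pdgfrb and Fbn1 averaged at most 0.06 CPM in knockout and 0.19 CPM in control libraries. The collagen genes Col1a1, Col1a2 and Col3a1 had log2 fold changes of 0.24, -0.44 and 0.10, with adjusted p of 0.716 or more. The part of these markers in the Dcn result was not tested.

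Markers of the hair follicle and its stem cells are set beside the lower genes. Of 7 listed, 6 were tested and 1, Lgr5, fell. This receptor of cycling stem cells averaged 3.98 ± 1.25 CPM in knockout and 17.0 ± 6.37 CPM in control libraries (SD, n = 4 each; log2 fold change -2.09, edgeR adjusted p = 0.0064). Cd34 averaged 20.3 CPM in knockout and 48.2 CPM in control libraries (log2 fold change -1.24, adjusted p = 0.074), and Lhx2 averaged 15.4 CPM in knockout and 31.6 CPM in control libraries (-1.03, adjusted p = 0.083). The other tested markers, Sox9, Msx2 and Krt15, differed less. Their log2 fold changes were -0.29, -0.21 and -0.08 (edgeR adjusted p = 0.294, 0.577 and 0.819). The summed level of the list, nearly all Krt15, was 2548 to 2833 CPM in knockout and 2160 to 3848 CPM in control libraries. In bulk RNA, fewer cells of a type and less RNA per cell cannot be told apart, and the part of these markers in the lower imprinted genes was not tested.

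Among 7 melanocyte markers 4 were tested, and Kit was the one called lower (0.13 CPM in knockout and 0.73 CPM in control libraries on average). Its knockout libraries had at most 0.19 CPM, so Kit, like Sgce, entered the test through its control libraries alone. The summed melanocyte level was 6.16 to 7.70 CPM in knockout and 6.53 to 7.40 CPM in control libraries. Of the endothelial, immune and Schwann cell markers that were tested (2, 4 and 1), 0 passed, with 0 at an unadjusted p under 0.05, and no muscle or adipocyte marker was abundant enough to be tested.

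**Figure D4:**
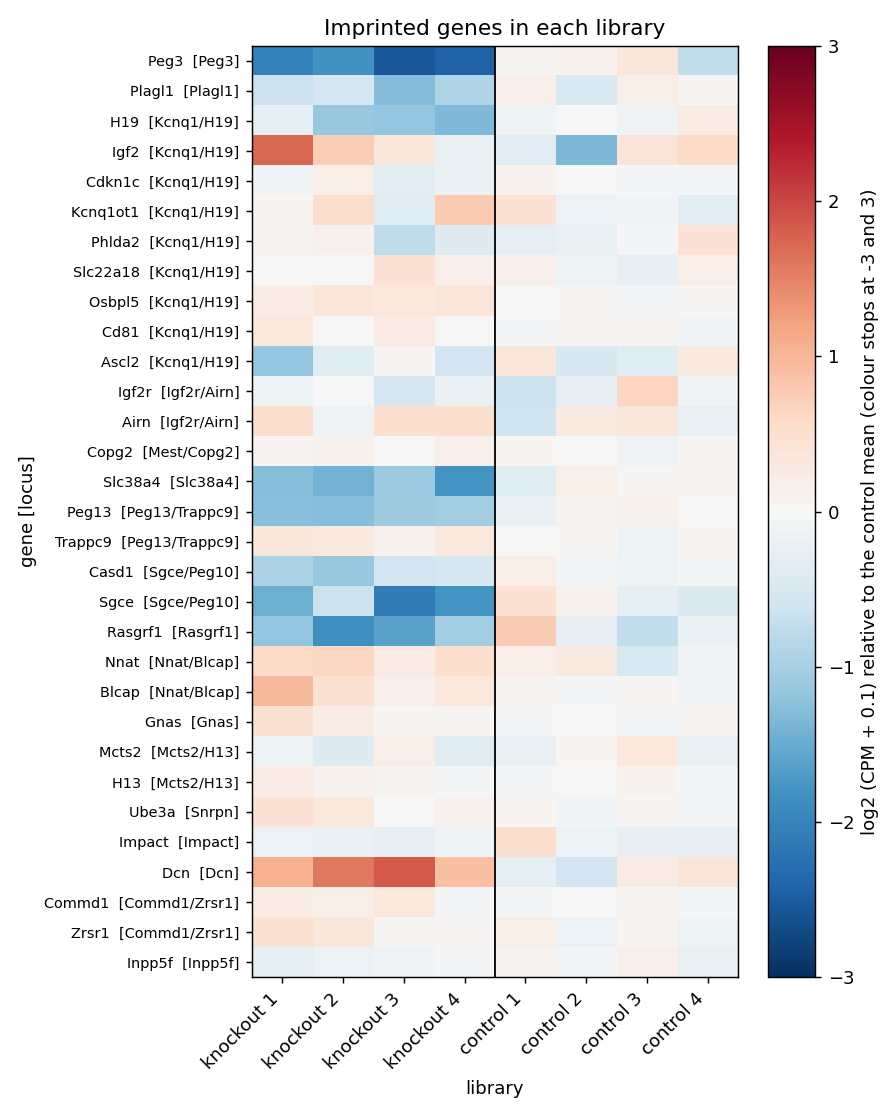
Each cell of the map is 1 of the 31 tested imprinted genes in 1 library, coloured by log2 of CPM plus 0.1 relative to the same quantity for the control mean, with the 4 knockout libraries left of the line and the 4 control libraries right of it. Peg3, Slc38a4, Peg13, Casd1, Sgce and Rasgrf1 are blue in all 4 knockout libraries, Dcn is red in all 4, and the abundant genes of the Gnas, Copg2 and H13 rows are close to white.

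The remaining paired loci, in which a noncoding RNA or retrogene sits in or beside a host gene, did not pass the test. At Nnat/Blcap, Blcap, a small membrane protein whose intron holds Nnat, had 55.7, 38.4, 31.5 and 34.8 CPM in knockout libraries, against 29.6, 27.2, 28.9 and 26.6 CPM in control libraries. Its groups did not overlap, with knockout replicate 1 far above the rest, and its log2 fold change was 0.51 (SE 0.16, edgeR adjusted p = 0.072). It passed with DESeq2 (adjusted p = 0.0276), with a term for Y-linked transcripts (edgeR adjusted p = 0.0377) and without knockout replicate 3 (0.0381). Nnat, the paternally expressed neuronatin gene on the opposite strand, differed by 0.50 on the log2 scale, with an SE of 0.19 and an edgeR adjusted p of 0.13.

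At Igf2r/Airn, Igf2r, the maternally expressed receptor that clears IGF2, had 49.3, 54.9, 38.3 and 47.1 CPM in knockout libraries, against 35.2, 45.9, 84.4 and 50.6 CPM in control libraries. Control replicate 3 was far above the other libraries, and without it the log2 fold change turned to 0.11, compared with -0.19 (SE 0.24) in all libraries. Airn, the paternal noncoding RNA that silences Igf2r, was under 0.4 CPM throughout (log2 fold change 0.52, SE 0.41).

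Gnas was the most abundant imprinted gene per kilobase of exon. It encodes the stimulatory G protein alpha subunit and several transcripts of either parental copy, which the counts do not separate. It had 541.3, 464.3, 414.6 and 415.2 CPM in knockout libraries, against 387.1, 401.5, 382.4 and 418.5 CPM in control libraries (log2 fold change 0.21, SE 0.11, edgeR adjusted p = 0.24). Knockout replicates 3 and 4 overlapped the controls.

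Copg2, a coat protein subunit of transport vesicles, had 96.3, 99.2, 92.1 and 101.7 CPM in knockout libraries, against 96.2, 90.4, 85.9 and 94.4 CPM in control libraries (log2 fold change 0.09, SE 0.08). Its convergent neighbour Mest, a paternally expressed hydrolase-like gene, had 22 counts in knockout and 25 in control libraries, and 912 bases of exon are shared by the 2 genes on opposite strands, so reads there are uncertain. H13, a signal peptide peptidase, had 83.1, 76.3, 75.7 and 69.6 CPM in knockout libraries, against 68.2, 71.7, 76.5 and 68.6 CPM in control libraries (log2 fold change 0.10, SE 0.08). Its intronic retrogene Mcts2 had a log2 fold change of -0.16 (SE 0.19).

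Commd1, a regulator of copper and NF-kappaB, had 37.3, 35.7, 39.8 and 31.1 CPM in knockout libraries, against 30.8, 32.0, 33.5 and 30.9 CPM in control libraries (log2 fold change 0.18, SE 0.10). The retrogene Zrsr1 inside it had 0.24 (SE 0.15), and the 2 share 412 exon bases on opposite strands. Inpp5f, an inositol phosphatase, had 13.9, 15.1, 15.9 and 16.8 CPM in knockout libraries, against 18.2, 16.6, 18.9 and 14.7 CPM in control libraries (log2 fold change -0.15, SE 0.12). Impact, a paternally expressed regulator of translation, had 19.15, 18.96, 18.40 and 20.02 CPM in knockout libraries, against 30.77, 19.52, 18.24 and 18.37 CPM in control libraries (log2 fold change -0.18, SE 0.17). Control replicate 1 alone lay apart, and without it the log2 fold change of Impact was 0.03.

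The Snrpn locus, the region of the Prader-Willi and Angelman syndromes in people, was represented by Ube3a alone. Ube3a, a ubiquitin ligase that is maternal in neurons, had 86.4, 78.5, 63.7 and 69.8 CPM in knockout libraries, against 65.7, 60.1, 65.8 and 62.1 CPM in control libraries (log2 fold change 0.23, SE 0.10, edgeR adjusted p = 0.17). Of the paternal genes there, Ndn, a growth-restraining MAGE family member, had 6 counts in knockout and 12 in control libraries, Magel2 had 1 in knockout and 0 in control libraries, and Peg12 had 0 in knockout and 1 in control libraries. Snrpn, a splicing component, had 0 counts in every library. It shares exon sequence with Snurf on the same strand, which was also at 0. Ambiguous reads were left out, so whether these 0 counts mean that the transcripts were absent was not tested.

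The Grb10 and Dlk1 loci lay below the filter, so they were not part of the main test and are described by counts. Grb10, a maternally expressed adaptor that dampens insulin and growth factor receptors, had 2, 5, 6 and 7 counts in knockout libraries, against 30, 12, 19 and 10 counts in control libraries. The groups did not overlap, and the depth-adjusted ratio of knockout to control was 0.311 (exact 95% interval 0.179 to 0.517). Dlk1, the paternally expressed Notch-family ligand of progenitor cells, had 3, 1, 2 and 0 counts in knockout libraries, against 10, 11, 9 and 2 counts in control libraries, a ratio of 0.207 (0.0708 to 0.502).

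Meg3, the maternal noncoding RNA of the same cluster, had 9, 6, 4 and 4 counts in knockout libraries, against 3, 0, 4 and 3 counts in control libraries. The ratio was 2.54 (1.16 to 5.98), and these groups touched at 4 counts. The intervals cover counting error only and not the spread between libraries. When edgeR was run with no filter on low counts, Grb10 (adjusted p = 0.0604), Dlk1 (adjusted p = 0.11) and Meg3 (adjusted p = 0.289) did not pass. A difference between the groups was therefore not established for these genes. Rian had 4 counts in knockout and 3 in control libraries, and Mirg, which like Rian hosts small RNAs, had 0 in every library. A sum of 0 counts over the 4 knockout libraries allows up to 3 counts at this depth.

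**Figure D5:**
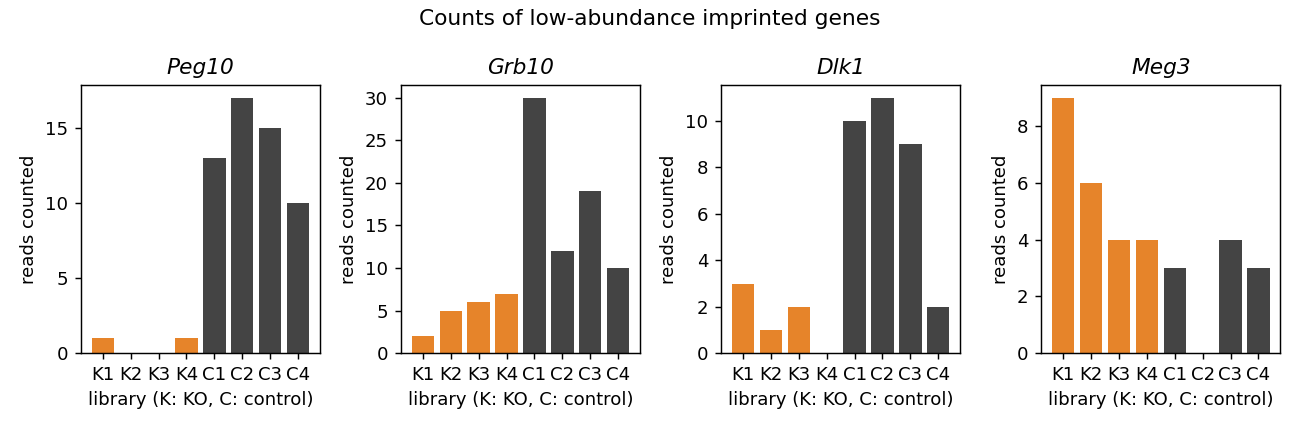
Bars give the reads counted in each library for 4 imprinted genes below the filter, with the knockout libraries K1 to K4 left of the control libraries C1 to C4. Peg10 has 0 or 1 read in each knockout library and 10 to 17 in each control library, Grb10 and Dlk1 are mostly lower in knockout, and Meg3 is not.

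Per kilobase of exon, the level order in these keratinocytes placed Gnas first (41.0 CPM per kilobase in knockout and 35.5 in control libraries), then Osbpl5 (38.5 in knockout and 30.9 in control), Cd81 (27.0 in knockout and 24.4 in control), then Copg2, then Blcap (13.2 in knockout and 9.23 in control). The lower genes came at rank 11 or below: Plagl1 had 2.99 CPM per kilobase in knockout and 5.24 in control, Slc38a4 had 1.96 in knockout and 5.09 in control, and Peg3, Rasgrf1 and Sgce were all below 0.3 in both groups.

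Genes near the called imprinted genes were also counted. Outside the set, 45 tested genes lay within 500 kb of a called imprinted gene, and 6 of them are on the second list described below. Of all 45, 0 were higher and 1 was lower, against 4.33% higher and 4.54% lower over all tested genes. That one was Pced1b, near Slc38a4, which averaged 0.35 ± 0.13 CPM in knockout and 1.21 ± 0.55 CPM in control libraries (SD, n = 4 each; log2 fold change -1.77, SE 0.41, edgeR adjusted p = 0.026).

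A second list of 51 imprinted genes outside the set was described the same way; 49 were found in the table and 24 tested. Of these 24, 1 was higher and 1 was lower, against 4.33% higher and 4.54% lower over all tested genes. The other 22 missed the threshold, and the median over the 24 was 0.08 on the log2 scale. Cobl, an actin nucleator, had 48.5, 73.0, 46.8 and 45.7 CPM in knockout libraries, against 25.3, 28.0, 12.5 and 30.8 CPM in control libraries (log2 fold change 1.15, SE 0.27, edgeR adjusted p = 0.035). Ampd3, an AMP deaminase, had 18.01, 21.05, 24.22 and 25.95 CPM in knockout libraries, against 30.3, 35.7, 38.9 and 29.1 CPM in control libraries (log2 fold change -0.59, SE 0.14, edgeR adjusted p = 0.028).

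The regulators of imprinting did not pass the test. Of 25 listed, 23 were tested with edgeR and 0 were called, against 8.87% over all tested genes, with 5 at an unadjusted p under 0.05. DESeq2 called 3 and limma-voom called 0. The median log2 fold change of the 23 was 0.01. Dnmt1, the maintenance DNA methyltransferase, averaged 230.2 ± 17.4 CPM in knockout and 240.0 ± 15.1 CPM in control libraries (SD, n = 4 each). Trim28, the corepressor recruited by ZFP57, averaged 249.5 CPM in knockout and 267.6 CPM in control libraries. Zfp57 itself was scarce, at 0.19 CPM in knockout and 0.49 CPM in control libraries on average (log2 fold change -1.36, edgeR adjusted p = 0.20). Its relative Zfp445, which also binds imprinting control regions, averaged 81.7 CPM in knockout and 80.9 CPM in control libraries. The 5 regulators at an unadjusted p under 0.05 were 4 with a negative and 1 with a positive log2 fold change. The de novo DNA methyltransferase gene Dnmt3b averaged 6.07 ± 0.89 CPM in knockout and 8.25 ± 0.61 CPM in control libraries (SD, n = 4 each; log2 fold change -0.44, edgeR adjusted p = 0.0856), and its groups did not overlap. Smchd1, a chromatin protein that acts at some imprinted clusters, averaged 59.8 ± 3.51 CPM in knockout and 68.7 ± 4.03 CPM in control libraries (SD, n = 4 each; -0.20, edgeR adjusted p = 0.144), also without overlap. Knockout lay wholly below control for these 2 of the 23 tested regulators, against 9.00% of all tested genes. The other 3 of the 5 had overlapping groups. The histone methyltransferase gene Setdb1 had -0.39 (edgeR adjusted p = 0.0782) and the de novo DNA methyltransferase gene Dnmt3a -0.30 (edgeR adjusted p = 0.102). The chromatin factor gene Arid4b had 0.57 (edgeR adjusted p = 0.0651).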

How the data were processed

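Total RNA from skin keratinocytes was sequenced in 4 knockout and 4 control libraries. The deposited values are whole-number counts per gene symbol, not normalized. Per the submitters' processing notes, the tools were TopHat2 2.1.0, SAMtools 0.1.18, Trimmomatic 0.35 and FastQC 0.11.4, on build mm10. Which program counted the reads, on what annotation and with what strand setting, is not given in the sources used here; overlapping and antisense genes therefore cannot be told apart. The closing lines of each count file, which name no gene, were left out: reads outside genes made up 15.7 to 21.7% and ambiguous reads 0.918 to 1.11%. Multiply aligned reads were listed at 0.

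Low counts were removed by filterByExpr of edgeR, libraries were scaled by TMM, and genes were tested with edgeR's quasi-likelihood test (robust), with Benjamini-Hochberg adjustment over 13016 genes and a threshold of 0.05; CPM use TMM-scaled library sizes, and the SE is the log2 fold change divided by the square root of F. Versions were edgeR 4.0.16, DESeq2 1.42.0 and limma 3.58.1 in R 4.3.3. The steps were also run on simulated counts in which only well-counted genes were changed, by large steps. That run does not bear on low-count genes or small changes. Positions and promoters come from RefSeq GRCm38.p6, in which all 47 symbols matched, and exon lengths and overlaps from GENCODE. Intervals on ratios of summed counts are exact 95% binomial intervals.

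The genes and lists were chosen with earlier results of these data known. Every imprinted gene of the set is accounted for: those past the threshold or without overlap are given by library, likewise the most abundant tested gene of each locus, and those not tested by counts. Of the other imprinted genes and the regulators, those past the threshold are named; the regulators named beside them were chosen after their values were seen. Alternatives were DESeq2, limma-voom, RLE and upper quartile scaling, library totals, no filter, 1 CPM in 4 libraries, a replicate block, leaving out each library, a term for Y-linked transcripts, and the 5 libraries without them.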

Additional observations from a re-analysis of the deposited data

Results flagged for a closer look

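Of 66 groups of 4 libraries checked for a lone value, 3 held one, where chance gives about 1 in 20. H19 had 2.54 CPM in knockout replicate 1, far from the other 3 knockout libraries at 1.20 to 1.38 CPM. Airn had 0.196 CPM in knockout replicate 2, below the others at 0.347 to 0.358 CPM. Impact had 30.8 CPM in control replicate 1, above the other control libraries at 18.2 to 19.5 CPM.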

How the results depend on the processing

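Of the 18 alternatives, Peg3, Slc38a4 and Peg13 passed in every one. Of the 10 genes called, DESeq2 and limma-voom kept all 10, the other single changes of scaling or filter 8 or 9, the replicate block 6, and leaving out 1 library 5 to 7. The count of imprinted genes called higher (2) became 4 with DESeq2, 1 with upper quartile scaling, with library totals and with the replicate block, 0 when the libraries with Y-linked transcripts were dropped, and 0 to 4 when 1 library was left out. The count called lower (8) became 5 with the replicate block and again 5 without Y-linked libraries (3 knockout against 2 control), and 4 to 7 when 1 library was left out. The other imprinted genes called (2) became 4 with DESeq2, 1 without Y-linked libraries, and 0 to 4 when 1 library was left out; the regulators called (0) became 3 with DESeq2, 3 with library totals, 1 with the replicate block and 0 to 1 when 1 library was left out. All genes called (1154) became 2010 with DESeq2, 723 with the replicate block, 383 without Y-linked libraries and 462 to 1247 when 1 library was left out. The causes were not tested. The sign changed for Copg2 (-0.022) and H13 (-0.015) with library totals, for Igf2r (0.12) and Mcts2 (0.067) without Y-linked libraries, for Igf2r on leaving out 1 library (-0.35 to 0.11) and for Impact likewise (-0.26 to 0.032), none of them called. Replicate numbers did not pair the libraries: same-numbered libraries had correlations of deviations from -0.23 to -0.04, and 0 of 4 knockout libraries correlated best with its own number. Genes under about 1 CPM rest on few reads, which limits Sgce, Rasgrf1, Igf2, Airn and the genes not tested.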
